A study of Rattus norvegicus with 9 samples.

Results

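The early response of the superior mesenteric artery (SMA) to ischemia was followed here by setting 3 arteries taken after 1 h of ischemia against 3 arteries of normal rats. These are 6 of the 9 RNA libraries of the series, and the other 3 (4 h of ischemia) entered the shared estimate of the spread between libraries, the correlations with the neuron index defined below and the slope of that index. All rats were 8-week-old Sprague-Dawley rats of 220 to 240 g, with no allele or drug treatment named for any group and no sex stated. Ischemia was a hemorrhage model. Under pentobarbital anesthesia a catheter was put into the right femoral artery and a large part of the blood volume was let, and time was counted once the model stood. Whether the normal rats had anesthesia or surgery is not stated, so the effects of blood loss, anesthesia and surgery cannot be told apart. Of 37203 gene symbols in the count table, 14952 had at least 10 counts in 3 or more of the 6 libraries and were tested.

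The SMA is a muscular artery. Its wall holds smooth muscle, a single layer of endothelium and an outer coat with sympathetic nerve fibers, Schwann cells, fat and macrophages, and sympathetic nerve cell bodies lie in ganglia close to where the vessel leaves the aorta. Cells under sudden stress first transcribe immediate early genes, whose activators are already in the cell, and the feedback inhibitors of the same pathways follow. NF-kB, CREB, the glucocorticoid receptor and the heat shock factors are among the activators that act on this time scale.

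Total counts ran from 13114273 to 15504240 over the 9 libraries, and 1 CPM (the count scaled by library size and TMM factor) stood for 13.6 to 17.9 counts in the 6 libraries compared. Genes of the mitochondrial genome took 16.8%, 17.9% and 29.3% of counts in normal replicates 1 to 3 and 21.3%, 15.2% and 9.10% at 1 h, and their part in the results was not tested. The SMA label was checked against smooth muscle markers. Myh11, the smooth muscle myosin heavy chain, was at 4689.9, 19213 and 17675 CPM in the normal libraries and 8732, 17062 and 4835 CPM at 1 h, and all 15 smooth muscle markers and all 15 endothelial markers were tested. The summed smooth muscle markers overlapped between groups, at 15440 to 67710 CPM in normal arteries and 17370 to 61380 CPM at 1 h. The study's wording can be read as separate rats or the same individuals, and the labels do not settle how it was meant. It describes the SMA as taken after the rat was killed, so a single rat could not give arteries of different conditions. P-values measure only the spread between these libraries.

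The libraries differed most in sympathetic neuron transcripts. Dbh, the enzyme that makes noradrenaline from dopamine, was at 116, 0 and 66.3 CPM in the normal libraries and 1856, 225 and 1869 CPM at 1 h. Th, the rate-limiting enzyme of catecholamine synthesis, was at 61.7, 0.364 and 35.2 CPM in the normal libraries and 723, 68.3 and 662 CPM at 1 h. Both genes were lowest in normal replicate 2 and, among the ischemic arteries, in replicate 2, and even that library lay above all 3 normal libraries. The difference between groups was 4.44 ± 2.95 (log2, SE) for Dbh, with an adjusted p of 0.426 by edgeR's quasi-likelihood test, and 3.90 ± 2.52 for Th, with an adjusted p of 0.415, so neither gene passed. The spread within groups was as wide, because at 4 h the same Dbh ran from 0.25 CPM in replicate 2 to 2052 CPM in replicate 3. In pieces of tissue, more neurons and more RNA per neuron cannot be told apart.

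Of the 28 sympathetic neuron markers tested, 21 were higher in all 3 libraries at 1 h than in any normal library, where 12.3% of all genes were so placed (26.1% in either direction), but only Pnmt and Syt1 had an unadjusted p under 0.05. Their median log2 difference was 3.99, against -0.02 over all genes. Summed, these markers reached 113 to 851 CPM in normal arteries and 1206 to 11200 CPM at 1 h. Prph, the intermediate filament of peripheral neurons, was at 76.5, 6.12 and 45.8 CPM in the normal libraries and 1084, 111 and 1058 CPM at 1 h. The noradrenaline transporter Slc6a2 was at 33.9, 0 and 21.005 CPM in the normal libraries and 528, 62.5 and 602 CPM at 1 h. Chrna3, the nicotinic receptor subunit of ganglion cells, was at 12.9, 0 and 10.2 CPM in the normal libraries and 290.1, 25.6 and 267 CPM at 1 h. Pnmt, which makes adrenaline and marks chromaffin cells, stayed at 0 to 1.27 CPM in the 6 libraries. Most transcripts of the list thus moved in the order of Dbh, with replicates 1 and 3 at 1 h about level and replicate 2 far below them. This list depended strongly on one library, since without replicate 3 at 4 h 25 of the 28 markers had an unadjusted p under 0.05.

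**Figure D1:**
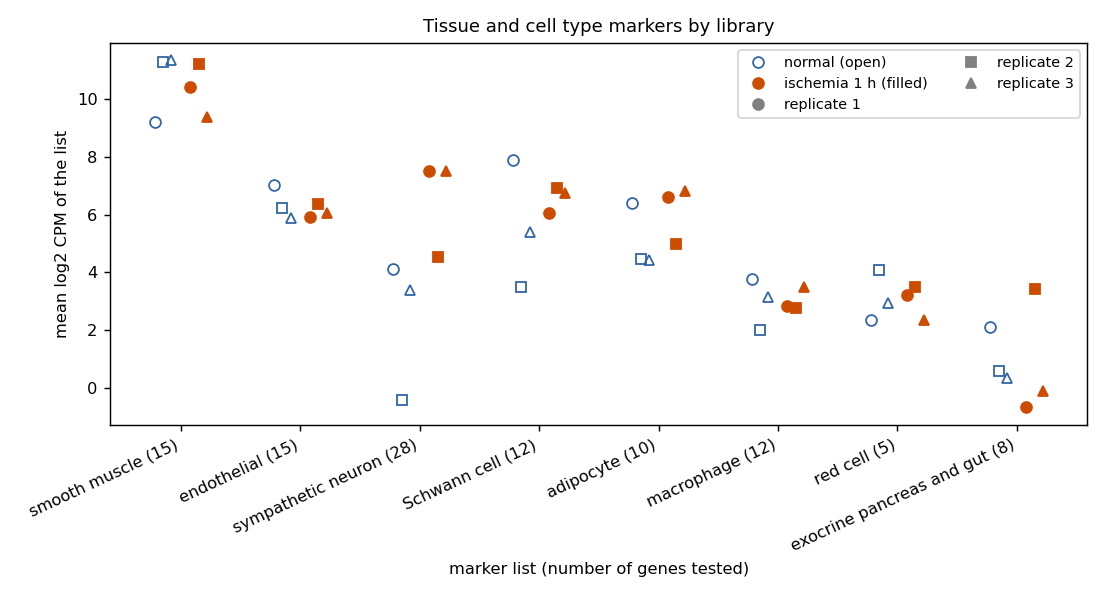
Mean log2 CPM of each marker list (y axis) in every normal (open symbols) and 1 h (filled symbols) library, with the number of tested genes in brackets on the x axis and the symbol giving the replicate. Sympathetic neuron markers are higher in the 3 libraries at 1 h than in the 3 normal ones, while smooth muscle, endothelial, Schwann cell and macrophage markers overlap between groups.

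The other tissue markers overlapped between groups almost throughout. Summed Schwann cell markers were at 271 to 5102 CPM in normal arteries and 1681 to 2832 CPM at 1 h, and 0 of 12 had an unadjusted p under 0.05. Adipocyte markers summed to 548 to 2695 CPM and 998 to 2570 CPM, with 0 of 10 past that threshold, and 0 of the 15 smooth muscle markers and 0 of the 5 red cell markers passed it. Macrophage markers summed to 64.6 to 260.3 CPM and 129 to 260.2 CPM, and only Cd14 of 12, a coreceptor for bacterial lipopolysaccharide, had an unadjusted p under 0.05, at 15.3, 9.11 and 9.73 CPM in the normal libraries and 9.24, 27.4 and 38.2 CPM at 1 h. Neutrophil markers were close to absent. Over all 11 of them the counts summed to 17 to 58 in a normal library and 37 to 104 at 1 h, Elane was at 0 in all 6 libraries, and only Mpo had enough counts to be tested. The 12 lymphocyte markers summed to 120 to 993 counts and 138 to 916 counts, with Cd79a at 0 throughout, and 3 were tested. Exocrine pancreas and gut markers, which come from tissue next to the artery, were highest in replicate 2 at 1 h, where the 8 tested genes summed to 120.8 CPM. In the other 5 libraries they reached at most 42.6 CPM.

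A neuron index, the mean of the z-scored log2 CPM of Dbh and Th, was used to set apart genes that follow neuron content. It was 0.26, -1.38 and 0.10 in normal replicates 1 to 3 and 1.02, 0.36 and 1.00 at 1 h. A gene was taken to follow neuron content when its deviations from its group means correlated with those of the index at 0.8 or more over the 9 libraries, and to run opposite to it at -0.8 or less. These correlations describe libraries that share depth and tissue makeup, and they carry no test. Following genes numbered 1580 (10.6% of those tested), opposite genes 886 (5.93%), and 12486 (83.5%) did neither. The class was not made up of neuronal genes alone. It held 24 of the 28 sympathetic neuron markers, a list that includes Dbh and Th, which make up the index. It also held 7 of the 12 macrophage markers, whose median correlation with the index was 0.81, while that of the smooth muscle markers was -0.65. The part of these other cells in the results was not tested. Without replicate 3 at 4 h, 892 genes followed it and 528 ran opposite to it, and without normal replicate 3, 1851 ran opposite. The median log2 difference at 1 h was 1.72 for following genes and 0.27 with the index as a covariate. For opposite genes it was -0.37 and -0.03, and for the others -0.06 and -0.05. The classes and the slope of the index rest on the same deviations within groups, and the index was higher in every 1 h library. A fall for following genes and a rise for opposite genes were therefore built into the covariate fit.

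Abundant transcripts that follow neuron content include several outside the list of sympathetic neuron markers. Tuba1a, a tubulin, was at 216, 82.4 and 155 CPM in the normal libraries and 988, 200.2 and 919.7 CPM at 1 h, and its log2 difference was 2.22 in the group fit and 0.71 with the index. Akap12, a scaffold for protein kinase A, was at 248, 134 and 169.9 CPM in the normal libraries and 527, 756 and 857 CPM at 1 h and kept a log2 difference of 1.31 with the index, against 1.95 without it. For Psap, App, Aplp2, Canx and Cd59 the log2 differences were between 0.24 and 0.69 in the group fit and between -0.01 and 0.30 with the index. Gdap1 and Adra2c, which appear again in the lists of mitochondrial and receptor genes, also belong to the following genes. For all following genes, a lower difference with the index comes from how the class was made.

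**Figure D2:**
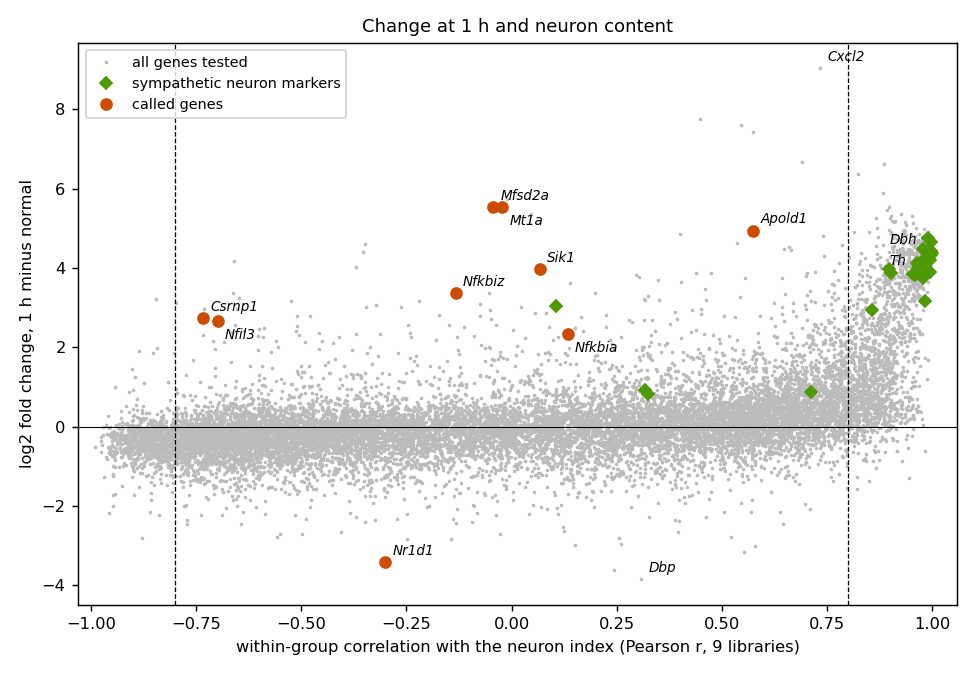
Log2 fold change at 1 h against normal (y axis) for each of the 14952 genes tested, against the correlation of its within-group deviations with the neuron index (x axis, 9 libraries), with dashed lines at -0.8 and 0.8. The sympathetic neuron markers (diamonds, with Dbh and Th of the index among them) gather at the right with the large positive changes, and the 9 called genes (large circles) lie between the dashed lines.

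In contrast to the normal group, 9 genes changed at 1 h with an adjusted p under 0.05 and a fold change over 1.5 (0.0602% of the genes tested). These are the study's thresholds but not its test. The study used a random variance F-test and took the fold between any pair of groups, while edgeR compared 1 h with normal here. Sik1, Mfsd2a, Apold1, Mt1a, Nfkbiz, Nfil3, Csrnp1 and Nfkbia rose (8 genes, 0.0535%) and Nr1d1 fell (1 gene, 0.00669%). None of the 9 followed or ran opposite to neuron content. Without a multiple testing correction, 1134 genes were higher (7.58%) and 1339 lower (8.96%) at a p under 0.05. The call depended on single libraries. Leaving out normal replicate 1, 2 or 3 gave 1, 1 and 0 genes, leaving out 1 h replicate 2 or 3 gave 3 each, and leaving out 4 h replicate 1 or 2, which belong to neither group compared, gave 5 and 2, while 1717 genes had an unadjusted p under 0.05 without normal replicate 3. DESeq2 on the same counts called 694 genes (4.64%), 348 higher (2.33%) and 346 lower (2.31%), and these included all 9. The common biological coefficient of variation was 50.1%, and 35.3% with the neuron index in the fit.

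**Figure D3:**
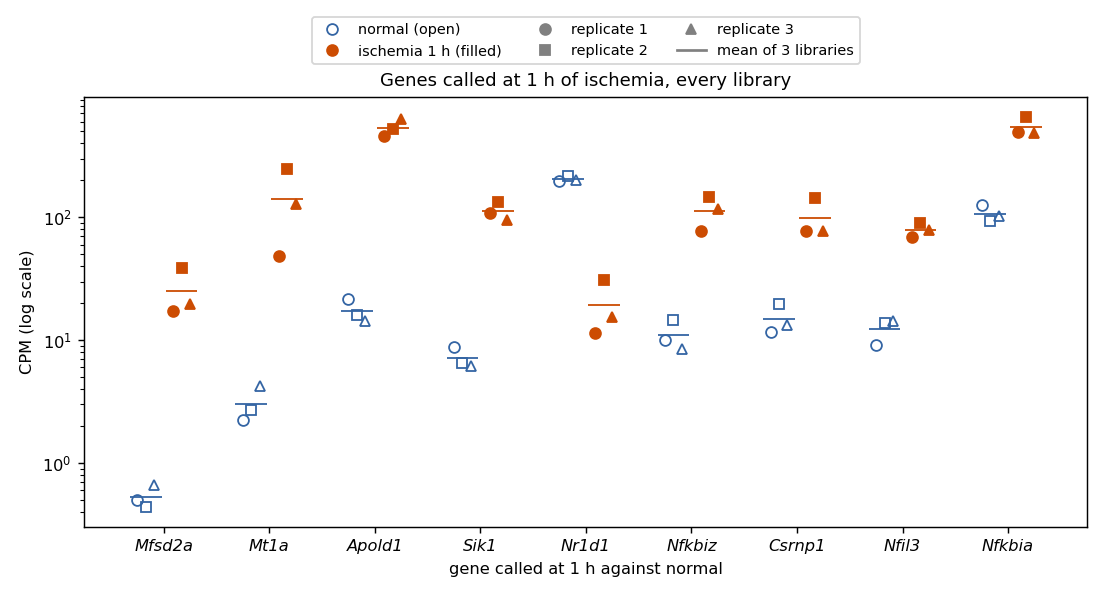
CPM (log axis) of the 9 called genes in each normal (open, blue) and 1 h (filled, orange) library, with the symbol giving the replicate and the line the mean of 3 libraries. The groups are apart for every gene, with Nr1d1 the one that is lower at 1 h.

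Sik1 had the smallest p. This salt-inducible kinase is transcribed through CREB and restrains CREB coactivators and histone deacetylases. It was at 8.84, 6.48 and 6.19 CPM in the normal libraries and 109, 134 and 94.3 CPM at 1 h, a log2 rise of 3.97 ± 0.26 (SE, adjusted p = 0.0031). The groups were far apart, and the 3 libraries within each group were close. Mfsd2a, the carrier of lysophosphatidylcholine with long-chain omega-3 fatty acids, was at 0.503, 0.437 and 0.663 CPM in the normal libraries and 17.3, 38.5 and 19.9 CPM at 1 h. It rose by 5.54 ± 0.44 on the log2 scale (adjusted p = 0.00875), from only 6 to 9 counts per normal library. Apold1, an endothelial early response gene, was at 21.8, 16.03 and 14.4 CPM in the normal libraries and 459, 526 and 626 CPM at 1 h. It rose by 4.95 ± 0.47 (adjusted p = 0.0162). Its within-group correlation with the neuron index was 0.57.

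Mt1a, a metallothionein that binds zinc and copper, was at 2.24, 2.696 and 4.201 CPM in the normal libraries and 48.01, 247 and 127 CPM at 1 h. Replicate 2 carried the highest value and replicate 1 the lowest, with a rise of 5.53 ± 0.62 (adjusted p = 0.0408). Metallothionein genes have near-identical copies, between which the counting may have split reads. Nfkbiz and Nfkbia encode nuclear and cytoplasmic inhibitors of the NF-kB family that NF-kB itself induces. Nfkbiz was at 9.96, 14.6 and 8.402 CPM in the normal libraries and 76.9, 146 and 117 CPM at 1 h, a rise of 3.37 ± 0.33 (adjusted p = 0.0186). Nfkbia was at 125, 93.9 and 103 CPM in the normal libraries and 496, 658 and 484 CPM at 1 h, a rise of 2.35 ± 0.28 (adjusted p = 0.0422). Of the 8 genes that rose it had the smallest fold.

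Csrnp1, a nuclear protein induced by AXIN1, was at 11.7, 19.8 and 13.4 CPM in the normal libraries and 77.004, 144 and 76.6 CPM at 1 h, a rise of 2.73 ± 0.33 (adjusted p = 0.0422). Nfil3, a bZIP repressor that competes with the clock output factor Dbp for its sites, was at 9.06, 13.8 and 14.4 CPM in the normal libraries and 69.04, 89.6 and 79.2 CPM at 1 h, a rise of 2.67 ± 0.25 (adjusted p = 0.0162). Nr1d1, the clock repressor REV-ERB alpha, was at 198, 217 and 200.2 CPM in the normal libraries and 11.5, 31.1 and 15.3 CPM at 1 h. It fell by 3.41 on the log2 scale, with an SE of 0.40 (adjusted p = 0.0422), and the 3 normal values were close to each other. For Csrnp1 and Nfil3 the within-group correlation with the neuron index was -0.73 and -0.70, and both rose more with the index in the fit, at 3.09 and 2.93. Sik1 lost its call only without normal replicate 3, where its adjusted p was 0.0542, and Mfsd2a without any one normal replicate. Csrnp1 and Nfkbia lost theirs without any one of the 9 libraries, Mt1a and Nr1d1 in 8 of the 9 fits, and Apold1, Nfil3 and Nfkbiz in 6.

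With the neuron index as a covariate, 9 genes were called again (0.0602%), 6 of them the same: Sik1, Nfil3, Mfsd2a, Csrnp1, Apold1 and Nfkbiz. The 3 that lost the call kept log2 differences about as large with the index, at 5.54 for Mt1a (adjusted p = 0.0529), -3.23 for Nr1d1 (adjusted p = 0.0588) and 2.32 for Nfkbia (adjusted p = 0.0758). The 3 that gained it were Cdkn1a and Arrdc3, higher, and Sox4, lower. All 3 belong to a neuron class, Sox4 to the following genes and Cdkn1a and Arrdc3 to the opposite ones. A fall for Sox4 and a rise for Cdkn1a and Arrdc3 were therefore built into this fit. Cdkn1a, the cell cycle inhibitor p21, was at 15.4, 70.3 and 19.97 CPM in the normal libraries and 260.3, 465 and 265 CPM at 1 h. Its correlation with the index was -0.85, and its log2 difference was 3.23 without and 4.26 with the index (adjusted p = 0.139 and 0.0332). Arrdc3, an alpha-arrestin that acts on beta-adrenergic receptors, was at 65.1, 103 and 89.7 CPM in the normal libraries and 241, 429.6 and 266 CPM at 1 h, with 1.86 and 2.29 (adjusted p = 0.129 and 0.0418). Sox4, an HMG box transcription factor, was at 52.8, 25.1 and 46.9 CPM in the normal libraries and 19.95, 12.4 and 18.6 CPM at 1 h. It followed the index within groups at 0.95 and yet was lower in every ischemic artery, with -1.29 and -1.82 (adjusted p = 0.214 and 0.0418). Of the 2473 genes with an unadjusted p under 0.05 in the group fit, 1149 were also under it with the index, all in the same direction. The covariate fit had 666 higher genes (4.45%) and 838 lower genes (5.60%) at that threshold. Leaving out one library gave 16 calls without 1 h replicate 1 and 4 or fewer in each of the other 8 fits, with 0 without normal replicate 1, where 1228 genes had an unadjusted p under 0.05. The index is itself a measurement at 1 h, so the covariate also removes any response that moves with Dbh and Th.

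Of the 9 called genes, 6 had an entry in the RefSeq promoter table, on build GRCr8, and 5 of these are shown because they hold a site of the kind that CREB or NF-kB binds. Each line gives the 250 bases before the transcription start, 5′ to 3′ on the strand of the gene, with the site in capitals. The core of the cAMP response element was searched as TGACG on both strands, which is also contained in the full element TGACGTCA, and the kB site by its usual consensus on both strands. Cores were in 18.2% of 33469 promoters of this length, full elements in 1.59%, kB sites in 6.33% and CArG boxes, the sites of serum response factor, in 1.5%. None of the 6 promoters held a full element or a CArG box, and that of Nr1d1 held none of the motifs.
Sik1, chr20:9958647-9958896, minus strand, 2 cores: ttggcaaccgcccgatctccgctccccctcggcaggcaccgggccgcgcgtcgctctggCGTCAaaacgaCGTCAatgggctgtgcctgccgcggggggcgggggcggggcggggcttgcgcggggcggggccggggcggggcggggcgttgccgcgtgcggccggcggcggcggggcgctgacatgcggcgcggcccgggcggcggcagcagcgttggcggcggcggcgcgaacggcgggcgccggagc
Apold1, chr4:169552349-169552598, plus strand, 1 core: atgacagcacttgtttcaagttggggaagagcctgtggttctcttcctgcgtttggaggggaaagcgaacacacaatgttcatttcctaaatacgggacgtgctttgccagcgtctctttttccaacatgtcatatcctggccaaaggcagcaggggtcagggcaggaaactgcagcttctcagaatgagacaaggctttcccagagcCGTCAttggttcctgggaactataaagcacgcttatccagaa
Nfil3, chr17:12432126-12432375, plus strand, 1 core: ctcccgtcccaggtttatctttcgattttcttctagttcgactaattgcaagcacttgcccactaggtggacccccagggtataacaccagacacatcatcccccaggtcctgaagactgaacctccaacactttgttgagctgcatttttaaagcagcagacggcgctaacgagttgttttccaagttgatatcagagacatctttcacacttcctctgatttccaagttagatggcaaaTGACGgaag
Nfkbiz, chr11:58251471-58251720, plus strand, 1 kB site: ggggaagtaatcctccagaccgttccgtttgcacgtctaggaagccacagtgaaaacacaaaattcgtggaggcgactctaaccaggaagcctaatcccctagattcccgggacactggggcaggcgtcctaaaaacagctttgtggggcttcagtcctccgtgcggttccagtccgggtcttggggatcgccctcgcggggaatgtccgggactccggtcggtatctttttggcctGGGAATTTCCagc
Nfkbia, chr6:78597073-78597322, minus strand, 1 kB site: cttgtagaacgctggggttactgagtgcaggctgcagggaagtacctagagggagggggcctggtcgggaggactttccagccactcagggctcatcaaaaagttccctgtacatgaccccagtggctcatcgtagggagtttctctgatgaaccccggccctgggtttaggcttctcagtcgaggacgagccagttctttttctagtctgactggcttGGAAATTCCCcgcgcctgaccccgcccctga
The kB sites stood in the promoters of Nfkbiz and Nfkbia and not in those of the other 4 genes, and cores stood in those of Sik1, Apold1 and Nfil3. These matches describe letters in the sequence, and no binding was measured here.

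Of 29 immediate early transcription factors tested, 1 was called (Csrnp1) and 16 had an unadjusted p under 0.05 with higher values. None was lower at that threshold. Over all genes 7.58% were higher and 8.96% lower, and these shares stand beside the counts of every list that follows. All lists were chosen with earlier results of these libraries known, so none of their counts is independent evidence. For the immediate early factors, the median log2 difference was 1.25. Nr4a1, an orphan nuclear receptor, was at 112, 76.1 and 94.9 CPM in the normal libraries and 650.2, 904 and 396 CPM at 1 h. Its relative Nr4a3 was at 4.25, 13.6 and 16.1 CPM in the normal libraries and 34.4, 183 and 68.9 CPM at 1 h, Egr2, a zinc finger factor of the EGR family, at 1.17, 0.656 and 1.47 CPM in the normal libraries and 4.55, 14.6 and 11.5 CPM at 1 h, and Arc, which codes for a capsid-like protein known from synapses, at 2.52, 2.55 and 5.53 CPM in the normal libraries and 10.04, 58.5 and 17.7 CPM at 1 h. Groups apart was a condition for naming these 4, and 13 of the 29 were apart with higher values, beside 12.3% of all genes. Replicate 2 was highest at 1 h in all 4. The adjusted p was 0.113 for Egr2 and Nr4a1 and 0.183 for Nr4a3 and Arc. The AP-1 genes Fos and Jun and their relative Atf3 did not pass even the unadjusted threshold, with log2 differences of 0.43, 0.58 and 0.25. They were chosen after their values were seen, and do not stand for the other AP-1 genes of the list. Of those, Fosl2 was called higher when replicate 1 at 1 h was left out. DESeq2 called 12 of the 29 higher, beside 2.33% of all genes.

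Within the CREB coactivators and SIK kinases, Sik1 stood apart. Of 13 tested, Sik1 was called, and Sik1, Pde4b, Crem, Pde4d and Sik2 had an unadjusted p under 0.05 with higher values. The median was 0.43. Pde4b, a phosphodiesterase that breaks down cAMP and is induced by it, was at 22.7, 28.1 and 16.9 CPM in the normal libraries and 42.9, 307 and 131 CPM at 1 h, a log2 difference of 2.83 ± 0.62 (adjusted p = 0.173). Crem, whose short inducible form represses cAMP response elements, was at 18.9, 19.5 and 14.6 CPM in the normal libraries and 21.1, 86.2 and 66.6 CPM at 1 h. In replicate 1 both were nearer to the normal values than in replicates 2 and 3, unlike Sik1. Log2 differences were -0.49 for Creb1, -0.12 for Crtc2 and 0.16 for Sik3.

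Of 17 NF-kB subunits and feedback genes tested, Nfkbiz and Nfkbia were called. With these, 8 had an unadjusted p under 0.05 with higher values, against 7.58% of all genes, and 1, Traf1, with lower values, against 8.96%, and the median was 0.77. Tnfaip3, the ubiquitin-editing enzyme A20, was at 21.2, 12.6 and 17.3 CPM in the normal libraries and 50.02, 145 and 169.9 CPM at 1 h (adjusted p = 0.201). Relt, a receptor of the TNF receptor family, was at 4.03, 2.77 and 2.06 CPM in the normal libraries and 13.5, 18.6 and 7.94 CPM at 1 h (adjusted p = 0.173). Log2 differences of the subunits were 0.05 for Rela, 0.06 for Nfkb1 and 0.47 for Relb, while Rel was at 2.97, 2.19 and 2.51 CPM in the normal libraries and 3.82, 13.01 and 12.9 CPM at 1 h. Traf1, an adaptor of TNF receptors, was at 7.89, 3.93 and 3.46 CPM in the normal libraries and 1.34, 1.201 and 1.48 CPM at 1 h.

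Cytokines, chemokines and adhesion molecules had the highest median and the widest range of log2 differences among the process lists. None of the 22 tested was called by edgeR, and 15 had an unadjusted p under 0.05 with higher values and 0 with lower ones, with a median of 3.04. DESeq2 called 13 higher, beside 2.33% of all genes. Cxcl2, a neutrophil chemokine, had 0, 0 and 1 counts in the normal libraries and 134, 260 and 369 counts at 1 h. The ratio of the pooled, scaled counts was 746, with a 95% interval from 134 to 29500 that covers counting error only. Its relative Cxcl1 was at 1.17, 1.02 and 4.57 CPM in the normal libraries and 118, 445 and 606 CPM at 1 h, a log2 difference of 7.44 ± 1.20 (adjusted p = 0.113). Csf3, the granulocyte growth factor, was at 0.0559, 0 and 0.442 CPM in the normal libraries and 6.36, 29.8 and 61.7 CPM at 1 h (adjusted p = 0.131). Il6 was at 0, 0.437 and 0.442 CPM in the normal libraries and 2.61, 47.5 and 136 CPM at 1 h (adjusted p = 0.223), and Ccl7, a monocyte chemokine, at 1.57, 0.656 and 1.33 CPM in the normal libraries and 5.16, 45.2 and 39.02 CPM at 1 h (adjusted p = 0.201).

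Normal arteries held at most a few CPM of these 5 transcripts. All 3 ischemic arteries lay above all 3 normal ones, which was a condition for naming these 5. The same held for 11 of the 22 genes tested, beside 12.3% of all genes. Replicate 1 at 1 h was the lowest of the ischemic arteries in all 15 genes, against 366 of 1134 (32.3%) among all genes higher at that threshold. Adhesion molecules of activated endothelium showed the same order. Sele, E-selectin, was at 0.671, 0.437 and 0.5896 CPM in the normal libraries and 9.58, 10.3 and 10.5 CPM at 1 h, Icam1 at 37.7, 52.7 and 37.2 CPM in the normal libraries and 113, 499 and 318 CPM at 1 h and Vcam1 at 22.8, 37.8 and 28.96 CPM in the normal libraries and 74.6, 387 and 368 CPM at 1 h. Cxcl12, a constitutive chemokine, had a log2 difference of -1.19. Correlations of the 5 leading genes with the neuron index ran from 0.45 for Il6 to 0.73 for Cxcl2, and with the index in the fit the median of the list was 2.44. Leaving out one library moved the count of 15 to between 12 and 17.

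**Figure D4:**
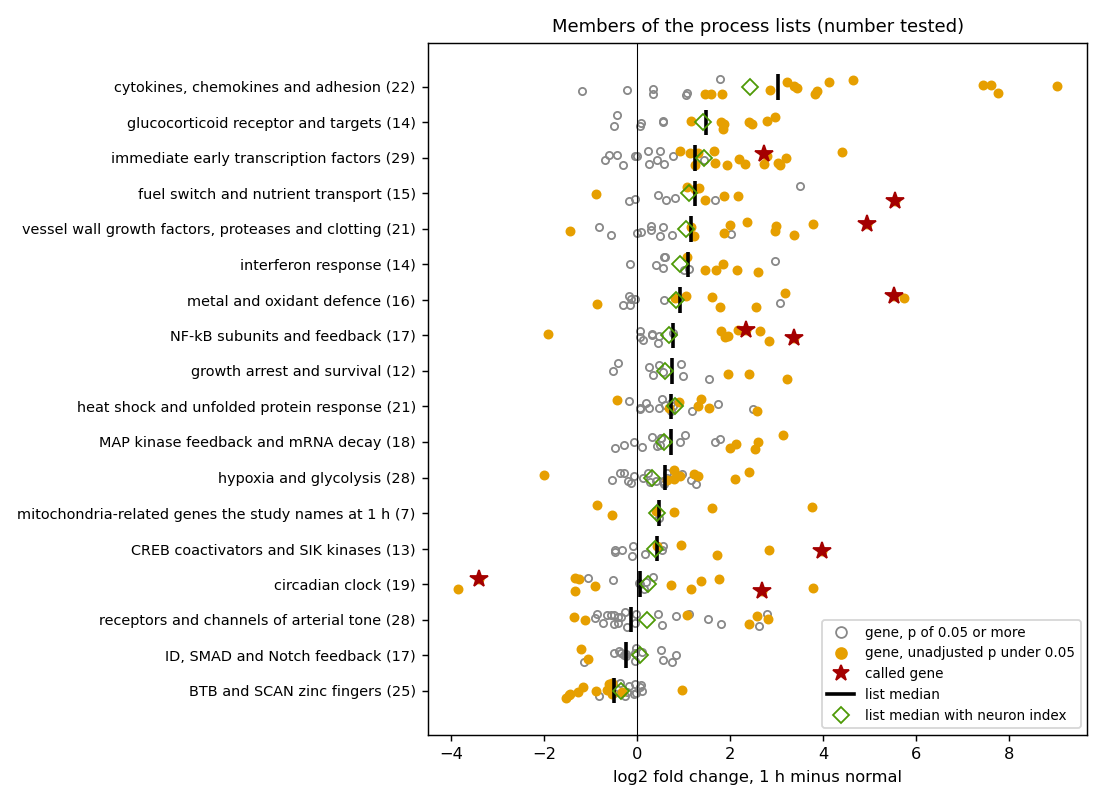
Log2 fold change at 1 h against normal (x axis) of every tested member of the 18 process lists (y axis, number tested in brackets), with filled circles for an unadjusted p under 0.05, stars for called genes, bars for list medians and diamonds for medians with the neuron index in the fit. Cytokines, chemokines and adhesion molecules have the highest median, 3.04, and BTB and SCAN zinc fingers the lowest, -0.50.

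Among the interferon response genes and the targets of the glucocorticoid receptor, which stress hormones activate, 0 were called by edgeR. Of 14 interferon genes, 6 had an unadjusted p under 0.05 with higher values and 0 with lower ones, and the median was 1.09. The groups were apart with higher values for 3 of the 14, beside 12.3% of all genes. The mean log2 CPM of the list was 2.95 in replicate 2 at 1 h, below the 3.25 of normal replicate 1. Without replicate 1 at 1 h the count of 6 became 3. Ifit3 was at 7.11, 3.21 and 3.76 CPM in the normal libraries and 11.5, 20.6 and 30.2 CPM at 1 h, the transcription factor Irf8 at 13.4, 12.97 and 9.14 CPM in the normal libraries and 14.1, 68.9 and 45.5 CPM at 1 h and Irf1 at 45.3, 37.1 and 25.1 CPM in the normal libraries and 54.2, 90.96 and 80.3 CPM at 1 h. Among 14 glucocorticoid receptor genes and targets, 8 had an unadjusted p under 0.05 with higher values and 0 with lower ones, with a median of 1.48, and the count of 8 became 5 without normal replicate 3. Cebpb, a bZIP factor of the acute phase, was at 13.7, 31.9 and 32.9 CPM in the normal libraries and 223, 281 and 111 CPM at 1 h, a log2 difference of 2.97 ± 0.49 (adjusted p = 0.113). Fkbp5, a cochaperone that damps the receptor, was at 32.6, 89.03 and 31.2 CPM in the normal libraries and 118, 399.6 and 294 CPM at 1 h (adjusted p = 0.183). Zbtb16, a zinc finger factor, was at 3.13, 48.2 and 13.9 CPM in the normal libraries and 74.3, 199 and 87.3 CPM at 1 h, and Lcn2, which binds bacterial siderophores, at 9.903, 6.99 and 5.896 CPM in the normal libraries and 12.1, 67.2 and 77.9 CPM at 1 h. The receptor itself, Nr3c1, had a log2 difference of -0.50. Several of these genes also answer to cytokines.

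Clock genes differed in both directions. Of 19 tested, Nfil3 was called higher and Nr1d1 lower, 6 had an unadjusted p under 0.05 on each side and the median was 0.05. Dbp, the output factor of the PAR bZIP family, was at 56.1, 61.1 and 215 CPM in the normal libraries and 8.04, 6.47 and 8.55 CPM at 1 h, a log2 difference of -3.85 ± 0.59 (adjusted p = 0.113). Its relative Tef was at 111, 105 and 188 CPM in the normal libraries and 38.5, 71.6 and 58.3 CPM at 1 h. Per3 was at 53.4, 40.6 and 60.7 CPM in the normal libraries and 9.44, 31.3 and 20.1 CPM at 1 h, and Nr1d2, the second REV-ERB, at 111, 108 and 139 CPM in the normal libraries and 24.2, 65.2 and 51.02 CPM at 1 h. On the other side stood Arntl, the activator BMAL1, at 32.3, 28.2 and 18.2 CPM in the normal libraries and 63.3, 58.7 and 54.04 CPM at 1 h, and the repressors Cry1 at 4.87, 4.59 and 8.62 CPM in the normal libraries and 20.8, 14.1 and 11.7 CPM at 1 h, Per1 at 183, 197 and 151 CPM in the normal libraries and 281, 377 and 218 CPM at 1 h and Bhlhe40 at 36.8, 14.6 and 16.7 CPM in the normal libraries and 44.5, 121 and 63.5 CPM at 1 h. Log2 differences were 0.05 for Clock and 0.03 for Per2. The hour of the day at which the arteries were taken is not stated, so time of day and ischemia cannot be told apart for this list.

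Of 28 hypoxia targets and glycolytic genes tested, 0 were called by edgeR and 1 higher by DESeq2, beside 2.33% of all genes. At an unadjusted p under 0.05, 8 were higher, against 7.58% of all genes, and 1, Ankrd37, was lower, and the median was 0.60. The groups were apart for 6 of the 28 (4 higher and 2 lower), where 26.1% of all genes were. The summed list did not overlap, at 2654 to 3504 CPM in normal arteries and 4424 to 5137 CPM at 1 h. Leaving out normal replicate 1 or 2, or 1 h replicate 1 or 3, brought the count of 8 to 3. Adm, the vasodilator peptide adrenomedullin, was at 4.98, 4.59 and 3.39 CPM in the normal libraries and 15.4, 20.6 and 19.6 CPM at 1 h (adjusted p = 0.183). Vegfa was at 73.5, 74.1 and 70.3 CPM in the normal libraries and 154, 93.4 and 128 CPM at 1 h (adjusted p = 0.223) and Pfkfb3, which raises the rate of glycolysis, at 191, 89.6 and 52.6 CPM in the normal libraries and 213, 236 and 331 CPM at 1 h (adjusted p = 0.294). Hk1, the hexokinase of neurons and most other tissues, was at 101, 112 and 122 CPM in the normal libraries and 324, 163 and 339 CPM at 1 h, lowest in replicate 2 as Dbh was, and its log2 difference of 1.31 came to 0.62 with the index. The glucose transporter Slc2a1 had 0.13, Hif1a 0.28 and Pdk1 -0.29. With the index, 3 of the 28 were higher at that threshold.

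Genes of metal and oxidant defence had 8 of 16 members higher with an unadjusted p under 0.05 and 1, Mtf1, lower, with a median of 0.93. Mt2A, the other metallothionein, was at 4.81, 8.67 and 5.45 CPM in the normal libraries and 78.7, 558 and 374 CPM at 1 h, a log2 difference of 5.74 ± 0.77 (adjusted p = 0.0806). It followed the order of Mt1a, with replicate 2 highest and replicate 1 lowest. Hmox1, heme oxygenase, was at 4.25, 1.89 and 1.25 CPM in the normal libraries and 9.98, 35.4 and 22.03 CPM at 1 h (adjusted p = 0.139), and Srxn1, which repairs oxidized peroxiredoxins, at 7.61, 4.74 and 4.27 CPM in the normal libraries and 29.7, 23.1 and 44.6 CPM at 1 h (adjusted p = 0.201). Nqo1, an NRF2 target like Srxn1, had a log2 difference of -0.14. Mtf1, the metal-sensing activator of metallothioneins, was at 17.01, 6.99 and 11.4 CPM in the normal libraries and 5.83, 6.87 and 6.83 CPM at 1 h.

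Heat shock and unfolded protein genes had 6 of 21 higher and 1, Ddit3, lower at that threshold, with a median of 0.73. Hspa5, the chaperone BiP of the endoplasmic reticulum, was at 129, 145 and 237 CPM in the normal libraries and 499, 437 and 389.6 CPM at 1 h (adjusted p = 0.16). Hsp90aa1 was at 8.67, 9.69 and 22.5 CPM in the normal libraries and 52.6, 23.02 and 42.9 CPM at 1 h, Bag3, a cochaperone of Hsp70, at 56.6, 158 and 134 CPM in the normal libraries and 279.9, 379.5 and 206 CPM at 1 h, and the pseudokinase Trib1 at 3.804, 3.497 and 3.39 CPM in the normal libraries and 13.5, 20.6 and 29.4 CPM at 1 h. The groups were apart in all 4, a condition for naming them, and in 6 of the 21 with higher values, beside 12.3% of all genes. Ddit3, the death-promoting factor CHOP of the same response, was at 23.6, 29.6 and 28.1 CPM in the normal libraries and 21.5, 18.1 and 20.2 CPM at 1 h, and log2 differences were 0.73 for Hspa1b and -0.17 for Hspa8.

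Among MAP kinase feedback and mRNA decay genes, 5 of 18 had an unadjusted p under 0.05 with higher values and 0 with lower ones, with a median of 0.72: Errfi1, Zfp36, Zc3h12a, Spry4 and Dusp5. Errfi1, an inhibitor of the EGF receptor, was at 80.1, 281 and 137 CPM in the normal libraries and 1148, 2335 and 860.3 CPM at 1 h, a log2 difference of 3.13 ± 0.66 (adjusted p = 0.16). Zfp36, which destabilizes cytokine mRNA, was at 86.7, 154 and 286 CPM in the normal libraries and 555, 1096 and 632 CPM at 1 h (adjusted p = 0.181), and Zc3h12a, an RNase with like targets, at 17.6, 28.9 and 22.6 CPM in the normal libraries and 43.4, 131 and 99.7 CPM at 1 h (adjusted p = 0.154). Spry4 was at 14.5, 4.81 and 5.75 CPM in the normal libraries and 75.1, 23.5 and 54.5 CPM at 1 h, with a correlation of 0.76 to the neuron index. Of 12 growth arrest and survival genes, Cdkn1a, Gadd45g and Plk3 were higher at that threshold and 0 were lower, with a median of 0.74. Gadd45g was at 28.6, 72.2 and 102 CPM in the normal libraries and 440.3, 437 and 186 CPM at 1 h and Plk3, a stress-induced polo kinase, at 10.2, 11.9 and 4.05 CPM in the normal libraries and 26.2, 37.7 and 38.3 CPM at 1 h. Without replicate 1 at 1 h the counts of these lists were 8 and 7.

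Genes of fuel use and nutrient transport had 7 of 15 higher and 1, Ppara, lower, with a median of 1.25, and Mfsd2a was called. Slc25a25, a mitochondrial carrier of ATP and magnesium, was at 12.5, 19.2 and 25.2 CPM in the normal libraries and 82.4, 93.9 and 80.01 CPM at 1 h, a log2 difference of 2.17 ± 0.28 (adjusted p = 0.0588). Its 3 ischemic values were close to each other. All lay above the normal ones, as the rule for naming it required. Pdk4, the kinase that turns off pyruvate dehydrogenase, was at 81.4, 193 and 70.8 CPM in the normal libraries and 248, 405 and 297 CPM at 1 h. Its correlation with the index was -0.90, and its log2 difference was 1.46 without and 2.35 with the index, a rise built in for opposite genes. Ppara, the nuclear receptor of fatty acid oxidation, was at 15.9, 29.5 and 36.9 CPM in the normal libraries and 20.02, 12.3 and 12.2 CPM at 1 h.

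The vessel wall list of growth factors, proteases and clotting genes had 10 of 21 members higher with an unadjusted p under 0.05 and 1, Ptafr, lower, with a median of 1.15, and Apold1 was called. Adamts1, a protease of versican and aggrecan, was at 71.8, 204 and 110.2 CPM in the normal libraries and 517, 1696 and 829 CPM at 1 h (adjusted p = 0.134). Adamts4, a related protease, was at 4.87, 4.23 and 1.25 CPM in the normal libraries and 11.8, 46.2 and 83.9 CPM at 1 h (adjusted p = 0.201). Edn1, the constrictor endothelin-1, was at 13.3, 7.14 and 5.23 CPM in the normal libraries and 15.8, 46.8 and 40.1 CPM at 1 h. Replicate 1 was lowest among the ischemic arteries in all 10. Ptafr, the receptor of platelet-activating factor, was at 16.5, 12.97 and 12.7 CPM in the normal libraries and 4.35, 5.47 and 5.601 CPM at 1 h. Tissue factor, F3, had a log2 difference of 0.08.

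**Figure D5:**
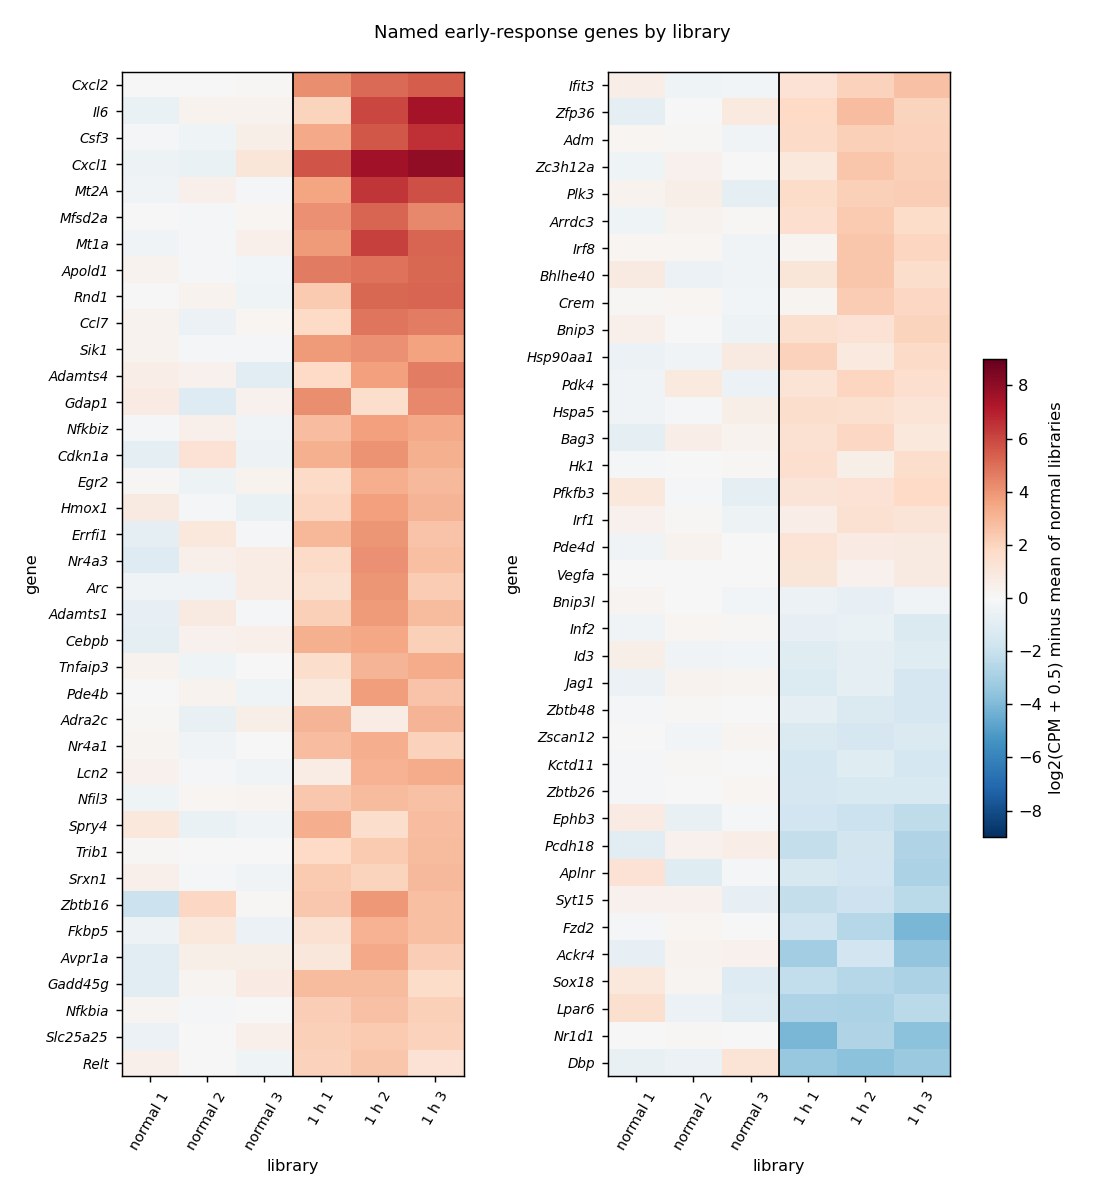
Color gives log2(CPM + 0.5) minus the mean of the normal libraries for named genes of the process lists and the largest changes (y axis, ordered by fold change) in the 6 libraries (x axis). Red is higher and blue lower than normal, and cytokine genes at the top left are palest in replicate 1 among the 1 h libraries.

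Receptors and channels of arterial tone passed the unadjusted threshold in both directions. Of 28 tested, 4 were higher (Adrb1, Avpr1a, Adra2c and Ednrb) and 2 lower (Gucy1a3 and Ednra) at an unadjusted p under 0.05, beside 7.58% and 8.96% of all genes, with a median of -0.13. Avpr1a, the vasopressin receptor of smooth muscle, was at 5.32, 17.05 and 16.7 CPM in the normal libraries and 23.8, 128 and 54.9 CPM at 1 h (adjusted p = 0.209). Adra2c, an alpha-2 adrenergic receptor, was at 1.68, 0.801 and 2.51 CPM in the normal libraries and 16.1, 2.67 and 16.2 CPM at 1 h. It followed neuron content at 0.88, and its log2 difference of 2.81 came to 1.12 with the index, a fall built in for following genes. Ednra, the endothelin receptor of smooth muscle, was at 48.7, 123 and 133 CPM in the normal libraries and 33.3, 64.2 and 20.7 CPM at 1 h, and Gucy1a3, a subunit of the nitric oxide receptor, at 189, 486 and 480.3 CPM in the normal libraries and 253, 137 and 139.8 CPM at 1 h. Both overlapped between groups. The count of 4 higher genes became 2 without replicate 3 at 1 h and 8 without replicate 3 at 4 h, and the count of lower genes ranged from 0, without normal replicate 2 or 3 or 1 h replicate 3, to 4. The calcium channel Cacna1c had a log2 difference of -0.49 and Nos3 0.46.

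Lower values were found for a list of BTB and SCAN zinc finger genes, transcriptional regulators with protein interaction domains, which also held Kctd11. The list does not cover the whole family. Zbtb16, placed with the glucocorticoid targets, was higher in every 1 h library than in any normal one. Bcl6, placed with the growth arrest genes, did not pass the unadjusted threshold. Of 25 tested, 11 were lower and 1, Zbtb20, higher at an unadjusted p under 0.05, against 8.96% and 7.58% of all genes, and the median was -0.50. Like the others, this list was chosen with earlier results of these libraries known, so its count is no independent evidence. Zbtb26 was at 11.2, 12.7 and 14.1 CPM in the normal libraries and 4.02, 4.47 and 4.62 CPM at 1 h (adjusted p = 0.113). Kctd11, an adaptor of a ubiquitin ligase, was at 16.3, 19.5 and 18.4 CPM in the normal libraries and 5.76, 8.14 and 5.72 CPM at 1 h, Zscan12 at 18.4, 15.7 and 22.7 CPM in the normal libraries and 7.16, 6.27 and 7.32 CPM at 1 h and Zbtb48, which binds telomeres, at 8.34, 10.6 and 10.1 CPM in the normal libraries and 5.22, 3.67 and 3.02 CPM at 1 h. Groups apart was a condition for naming these 4, whose log2 differences ran from -1.53 to -1.28. With lower values, 13 of the 25 had groups apart, beside 13.8% of all genes. With the neuron index 7 were lower, and without replicate 3 at 1 h also 7.

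ID, SMAD and Notch feedback genes had 0 of 17 higher and 2 lower at that threshold, a share near the 8.96% of all genes that were lower, with a median of -0.23. Jag1, a Notch ligand, was at 52.3, 95.95 and 89.2 CPM in the normal libraries and 32.6, 43.2 and 26.5 CPM at 1 h (adjusted p = 0.173), and Id3, an inhibitor of bHLH factors, at 159, 87.4 and 89.5 CPM in the normal libraries and 51.4, 57.8 and 50.9 CPM at 1 h (adjusted p = 0.181). Among endothelial markers, Sox18, Erg and Tie1 were lower at that threshold and 0 of 15 were higher, with a median of -0.37. This count of 3 became 1 without normal replicate 1 or 1 h replicate 1 or 3. Sox18, a factor of endothelial and lymphatic differentiation, was at 101, 63.9 and 23.1 CPM in the normal libraries and 11.3, 8.41 and 6.83 CPM at 1 h (adjusted p = 0.115). Pecam1 and Eng had log2 differences of -0.41 and -0.10, and the summed endothelial markers overlapped, at 1195 to 2293 CPM in normal arteries and 1094 to 1633 CPM at 1 h.

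Beyond the lists, the largest differences among genes that neither followed nor ran opposite to neuron content included 1 higher gene, Rnd1, and 7 lower genes. Rnd1, a GTPase that loosens actin fibers, was at 3.64, 4.52 and 2.58 CPM in the normal libraries and 20.2, 144 and 147 CPM at 1 h (adjusted p = 0.181). Lpar6, a receptor of lysophosphatidic acid, was at 97.5, 24.8 and 18.2 CPM in the normal libraries and 4.75, 4.605 and 6.34 CPM at 1 h (adjusted p = 0.176). Normal replicate 1 was far above the other normal arteries for this gene, and the ischemic arteries were alike. Ackr4, a scavenger of chemokines, was at 37.5, 79.1 and 83.1 CPM in the normal libraries and 6.76, 19.02 and 4.92 CPM at 1 h, and Fzd2, a Wnt receptor, at 35.4, 45.6 and 42.5 CPM in the normal libraries and 11.3, 6.41 and 1.85 CPM at 1 h. Aplnr, the apelin receptor, was at 37.4, 6.78 and 13.3 CPM in the normal libraries and 5.16, 4.27 and 1.66 CPM at 1 h, and Ephb3, an ephrin receptor, at 19.4, 7.14 and 10.5 CPM in the normal libraries and 3.08, 2.54 and 1.97 CPM at 1 h. Syt15 and Pcdh18 had log2 differences of -2.45 and -2.32. None of these passed the adjusted threshold, with adjusted p from 0.114 to 0.229 for the 7 lower genes.

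The study names 7 mitochondria-related genes at 1 h, which it chose on these samples, so their direction here is not independent evidence. None was called by edgeR and 1 by DESeq2, 4 higher and 2 lower genes had an unadjusted p under 0.05, and the median was 0.47. Bnip3, a mitophagy receptor of the outer mitochondrial membrane, was at 73.9, 56.4 and 39.9 CPM in the normal libraries and 152, 137 and 227 CPM at 1 h, a log2 difference of 1.60 ± 0.36 (adjusted p = 0.178). Its relative Bnip3l was at 148, 120.0 and 104 CPM in the normal libraries and 83.8, 74.6 and 97.2 CPM at 1 h, a difference of -0.54 ± 0.19 (adjusted p = 0.256). Gdap1, which acts in mitochondrial fission and is known from nerve disease, was at 4.59, 0.874 and 3.54 CPM in the normal libraries and 53.6, 8.61 and 60.1 CPM at 1 h. It followed neuron content at 0.91, and its log2 difference of 3.76 came to 1.32 with the index, a fall built in for following genes.

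Dnm1l, the fission GTPase Drp1, was at 58.5, 80.9 and 94.5 CPM in the normal libraries and 165, 86.2 and 156 CPM at 1 h, where replicate 2 lay within the normal range, and its difference was 0.80 without and 0.43 with the index (adjusted p = 0.299 and 0.752). Tomm20, the import receptor, was at 56.004, 60.2 and 70.2 CPM in the normal libraries and 83.8, 78.1 and 83.4 CPM at 1 h, and this gene has near-identical copies in the genome. Pdzd8, a tether between endoplasmic reticulum and mitochondria, was at 44.4, 38.5 and 40.9 CPM in the normal libraries and 54.9, 55.7 and 61.2 CPM at 1 h. Inf2, a formin that acts in fission, was at 375, 529 and 485 CPM in the normal libraries and 272, 299.7 and 187 CPM at 1 h. Its difference of -0.87 came to -0.36 with the index, to which it ran opposite at -0.83. Such a rise was built in for opposite genes. Replicate 2 was the lowest of the ischemic arteries in all 4 higher genes, Gdap1, Dnm1l, Bnip3 and Tomm20, as it was in 668 of the 1134 genes higher at that threshold. Leaving out one library moved the count of 4 higher genes to between 1 and 5, with a count of 1 without normal replicate 1 or 2 or 1 h replicate 1 or 3, and the count of 2 lower genes became 0 without 1 h replicate 1 or 2.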

How the data were processed

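RNA of 9 rat SMA libraries (3 normal, 3 at 1 h and 3 at 4 h of ischemia) was extracted with Trizol and sequenced on an Illumina HiSeq X. The authors deposited whole-number counts per gene symbol, with no normalization and no rows without a gene name. The submitters' processing notes name HISAT2 (version not given). The counting program, genome build, annotation and use of strand are not given in the sources used here, so no position from the counts is printed and overlapping or antisense genes cannot be told apart. The study's methods also speak of microarrays, but the table holds sequencing counts. Of the symbols tested, 13284 (88.8%) matched RefSeq names of GRCr8. No library was a copy of another (lowest chi-square per degree of freedom 69.4).

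Counts were tested in R 4.3.3 with edgeR 4.0.16 (TMM scaling, quasi-likelihood F-test, group as the only term, all 9 libraries in 1 fit), with Benjamini-Hochberg adjustment over 14952 genes. Called means an adjusted p under 0.05 and a fold over 1.5, the study's thresholds but not its test. Standard errors are the log2 change divided by the square root of F. The neuron index used log2 CPM with a prior count of 2. DESeq2 1.42.0 and limma 3.58.1 were alternatives, and the scripts were tested on simulated data. Intervals of ratios cover counting error only.

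Members, the 28 gene lists (494 genes, 445 tested) and tests were chosen with earlier results of these data known. The naming rule took every called gene of both fits, up to 4 members of each process list (unadjusted p under 0.05, at least 5 CPM, groups apart), the 10 largest higher and 10 largest lower genes outside the neuron classes, Dbh, Th and the 8 following genes with the highest level, the 7 genes of the study and 3 markers of each list. Of the genes this rule took, 2 are not reported here. Genes outside it were chosen after their values were seen: those completing a count of 5 or fewer, and further list members such as Fos, Sele, Arntl, Edn1, Rela and Slc6a2. Exocrine, red cell and lymphocyte markers are given as sums or counts.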

Additional observations from a re-analysis of the deposited data

How the results depend on the processing

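The count of 9 genes called at 1 h became 4 when only the 6 normal and 1 h libraries were fitted (3 of the 9 kept, with Sele added), 694 with DESeq2 and 17 with the mean of all sympathetic neuron markers as a covariate. It stayed between 8 and 12 with limma-voom, robust edgeR, RLE factors, library size only, filterByExpr or no filter. Leaving out one library gave 0 to 11 genes. With the neuron index as a covariate, the 9 genes became 0 with the 6 libraries (1135 at an unadjusted p under 0.05), 17 with library size only and 0 with the replicate block (952 at an unadjusted p under 0.05), and leaving out one library gave 0 to 16. The 1580 genes that follow neuron content became 629 at a correlation of 0.9, and 892 to 2295 with one library left out, the fewest without replicate 3 at 4 h. The sign turned for Dbh (-0.50), Th (-0.79), Psap (-0.042) and App (-0.016) with the mean of all neuron markers as covariate, and for Th (-0.10) and Psap (-0.012) with the neuron index, covariates that are built from or follow these genes. Over the named genes, 1663 alternative values kept direction and call, 77 gained a call, 74 lost it and 6 reversed. List medians moved by more than the spread between replicates in 39 of 580 cases. The 580 include the median of all genes tested, which was counted as unmoved without a comparison to a spread. Where a count differs by tool or setting, the cause was not tested.

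Deviations of same-numbered libraries correlated at -0.03, 0.43 and -0.17 between normal and 1 h, at -0.67, 0.28 and 0.08 between normal and 4 h and at -0.14, 0.61 and 0.65 between 1 h and 4 h, so some numbers deviated together but not all, and the numbers were not taken as pairs. With the replicate block 8 genes were called, 6 of the 9 and, in addition, Csf3 and Cxcl1. A level under 1 CPM rests on fewer than 17.9 counts in a library, which limits what can be said of low transcripts.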

Other observations

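The 4 h arteries show where the called genes stood later. These values share the normal libraries with the comparison above, and the difference between 1 h and 4 h was not tested here. Sik1 was at 113, 170.1 and 139 CPM in 4 h replicates 1 to 3, Mfsd2a at 37.1, 20.4 and 28.7 CPM, Apold1 at 223, 552 and 705 CPM, Mt1a at 49.9, 52.7 and 65.4 CPM and Nr1d1 at 29.4, 50.3 and 35.1 CPM. Nfkbiz was at 71.6, 96.5 and 112 CPM, Nfkbia at 515, 892 and 693 CPM, Csrnp1 at 118, 121 and 93.2 CPM and Nfil3 at 123, 146 and 96.7 CPM. All 9 therefore lay on the same side of the normal libraries at both times. They were called against these same normal libraries, and the 4 h libraries entered the spread used for the call. The share of all genes so placed at both times was not counted.

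The chemokines and cytokines were less even across the 4 h arteries. Il6 was at 0.828, 2.16 and 81.4 CPM, Cxcl1 at 73.1, 204 and 632 CPM, Cxcl2 at 1.903, 3.98 and 25.3 CPM and Csf3 at 6.704, 12.5 and 42.4 CPM. Replicate 3, which also had 2052 CPM of Dbh, was the highest in all 4. Whether neuron content has a part in this was not tested.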
